A study of Homo sapiens with 24 samples.

Results

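The comparison described here set HaCaT keratinocyte clones carrying the microRNA hsa-miR-186 against clones carrying an empty vector, both kept without arsenic (0 nM iAs, inorganic arsenic) and sampled at week 12. It was chosen by group label alone and uses 6 of the 24 RNA-seq libraries of the series, 3 with miR-186 and 3 with the vector, and it is described across the genes tested. The series also holds the same constructs at 100 nM iAs and at week 29, with 3 libraries in each of 8 groups. HaCaT is an immortalised human keratinocyte line described as non-malignant. Each construct was carried by 3 clonal lines that were kept for the whole regimen and matched for passage, per the labels, which call the samples of a group independent biological replicates. Which clone a replicate number stands for is not stated, and the promoter of the construct is not given in the sources used here. With 3 clones for each construct, a difference made by the construct and a difference between the clones picked cannot be told apart.

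A microRNA is a short RNA that guides an Argonaute protein to messenger RNAs, mostly through pairing of its seed bases with sites in 3′ UTRs, and this pairing lowers the stability or the translation of the target. miR-186 is made from an intron of ZRANB2, which encodes an RNA-splicing zinc finger protein. Keratinocytes form the epidermis, where they build keratin filaments and desmosomes, turn from basal to cornified cells, and answer viral RNA and injury with interferon-stimulated genes, cytokines and alarmins.

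The sequences of the transduced microRNA are shown because the search for its sites rests on them. They were taken from RefSeq (GRCh38, chromosome 1, minus strand). The capitals in the hairpin mark AAAGAAU, the seed of hsa-miR-186-5p, and those in hsa-miR-186-3p mark its own bases 2 to 8.
hsa-mir-186 hairpin: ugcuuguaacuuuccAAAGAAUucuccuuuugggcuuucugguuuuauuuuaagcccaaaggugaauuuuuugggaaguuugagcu
hsa-miR-186-3p: gCCCAAAGgugaauuuuuuggg
The gene MIR186 (ENSG00000207721, GRCh38 chromosome 1, 71067631 to 71067716) was listed at 0 in all 24 libraries, which were made from messenger RNA, so these data hold no measure of the microRNA itself. Its host ZRANB2 (ENSG00000132485, chromosome 1, 71063291 to 71081297) was at 31.6, 33.1 and 31.3 FPKM (fragments per kilobase of transcript, scaled to library size) in the miR-186 libraries 1 to 3, and at 27.5, 40.4 and 27.1 FPKM in the vector libraries 1 to 3. The log2 difference was 0.04 ± 0.22 (limma, adjusted p = 0.934), and the libraries of both constructs overlapped.

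The 6 libraries were alike in size. Their FPKM summed to between 717557 and 834160, and 13815 to 14264 genes reached 0.5 FPKM. Read counts are not known. Relative depth was estimated from the low end of nonzero FPKM times transcript length, in genes with a single annotated transcript. Set against the mean of the 24 libraries, it ran from 0.899 to 1.12. The third miR-186 library correlated slightly more with the first vector library (r = 0.972 across genes) than with the other miR-186 libraries (0.967 and 0.965). Genes with more G and C stood higher in 2 of the 3 miR-186 libraries, with slopes of 0.0823, 0.143 and -0.0904 log2 units per 10 points of GC in the miR-186 libraries and of -0.127, -0.204 and -0.0775 in the vector libraries. The keratinocyte label held against its markers. The 12 keratinocyte identity genes summed to between 2613 and 3702 FPKM with miR-186 and between 3289 and 3958 FPKM with the vector, and 1 of the 12 passed the test, DSG3, which was lower. The 8 fibroblast markers summed to between 4.0 and 41.5 FPKM with miR-186 and between 2.92 and 25.7 FPKM with the vector. Of these, COL1A2 and PDGFRB were listed at 0 in all 6 libraries. The 3 high enough to be tested had log2 differences above 0, from 0.19 to 2.00, and none passed. Sums were at most 11.2 FPKM for melanocyte markers, 20.9 FPKM for endothelial markers and 5.67 FPKM for leukocyte markers.

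Of 14228 genes tested, 203 (1.43%) were higher and 287 (2.02%) were lower with miR-186 at an adjusted p under 0.05. Of these 490 genes, 487 had no overlap between the libraries of the constructs, as had 3933 of all genes tested. Changes are log2 differences (miR-186 minus vector ± standard error) of log2(FPKM + 0.5), so changes at low levels are understated. The median change was 1.05 among the higher genes, -0.88 among the lower genes and -0.03 over all genes tested. At least a 2-fold change was seen for 120 higher and 113 lower genes, and at least a 4-fold change for 14 and 15. The called genes differed in base composition, with a median gene GC content of 51.8% for higher, 45.5% for lower and 47.9% for all genes tested. When each library was corrected for GC content, 182 of the 203 and 238 of the 287 were still called, with 376 higher and 309 lower genes in all. Without the filter on low values the split was 269 higher and 204 lower, and with a correction for both GC content and genome windows it was 250 and 224. Under the latter, 141 of the 203 and 137 of the 287 were still called. In each of the 6 fits that leave out a library, 58 of the higher and 59 of the lower genes were called. These fits also have fewer samples, so a lost call does not by itself point to a single library.

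Among the rises that met the naming rule (a symbol, not antisense, a mean of at least 1 FPKM with miR-186, and no overlap between the constructs), the largest were of antiviral genes that interferon induces. RSAD2 (ENSG00000134321, chromosome 2, 6865806 to 6898239), which encodes the antiviral enzyme viperin, was at 18.5, 6.87 and 19.2 FPKM in the miR-186 libraries (14.9 ± 6.94, SD, n = 3) and at 1.6, 0.481 and 1.02 FPKM in the vector libraries (1.03 ± 0.559, SD, n = 3). Its lowest miR-186 library was above every vector library, as the naming rule required, and it rose by 3.26 ± 0.61 (limma, adjusted p = 0.00538). OASL (ENSG00000135114, chromosome 12, 121019111 to 121039242), whose product aids the RNA sensor RIG-I, was at 55.6, 27.7 and 32.0 FPKM with miR-186 and at 3.72, 3.3 and 3.77 FPKM with the vector. It rose by 3.19 ± 0.39 (limma, adjusted p = 0.00011), and both genes were called in each of the 6 fits that leave out a library. IFI44, another interferon-induced gene, was at 37.0, 15.9 and 25.2 FPKM with miR-186 and at 5.63, 6.54 and 5.66 FPKM with the vector, a rise of 1.96 ± 0.47 (limma, adjusted p = 0.0265). The chemokine gene CCL5 was at 4.51, 2.78 and 3.65 FPKM with miR-186 and at 0.888, 0.337 and 0.66 FPKM with the vector. It rose by 1.89 ± 0.37 (limma, adjusted p = 0.00748).

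Most of the interferon programme did not pass the test. Of 40 interferon-stimulated genes tested, 5 rose and none fell, or 12.5% against 1.43% of all genes tested, and their median change was 0.21 against -0.03. The other called members were HERC5, the ligase that attaches ISG15 to proteins, and CMPK2, a mitochondrial nucleotide kinase. HERC5 was at 3.09, 0.978 and 3.6 FPKM with miR-186 and at 0.466, 0.266 and 0.35 FPKM with the vector, and it rose by 1.70 ± 0.44 (limma, adjusted p = 0.0391). CMPK2 was at 4.96, 2.37 and 5.73 FPKM with miR-186 and at 0.969, 1.15 and 0.867 FPKM with the vector, and it rose by 1.63 ± 0.45 (limma, adjusted p = 0.0499). CMPK2 neighbours RSAD2 on chromosome 2, and the annotated spans of the genes overlap. In all 5 genes the second miR-186 library was the lowest of the 3 with miR-186. The count of 5 fell to 2 when any vector library, or miR-186 library 1 or 3, was left out, with an adjusted p of up to 0.116 for IFI44 and 0.136 for HERC5.

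The members that did not pass include genes widely used to mark the interferon response. IFIT1, which binds foreign RNA caps, was at 30.9, 29.1 and 43.6 FPKM with miR-186 and at 31.1, 27.7 and 26.6 FPKM with the vector, a log2 difference of 0.25. Differences were 0.11 for IFIT3, 0.15 and 0.06 for the RNA-sensing synthetase genes OAS1 and OAS3 and 0.02 for the entry-blocking IFITM3. The antiviral GTPase gene MX1 was at 2.92, 2.5 and 4.25 FPKM against 1.71, 1.36 and 2.27 FPKM, and its difference of 0.70 did not pass (limma, adjusted p = 0.317). ISG15, a ubiquitin-like modifier, was at 8.86, 6.48 and 2.86 FPKM with miR-186 and at 1.46, 0.25 and 1.52 FPKM with the vector. Its libraries did not overlap, but the difference of 2.07 ± 0.77 missed the threshold (limma, adjusted p = 0.138). Of the 40 genes, 26 stood above 0 and the changes ran from -0.88 to 3.26.

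**Figure D1:**
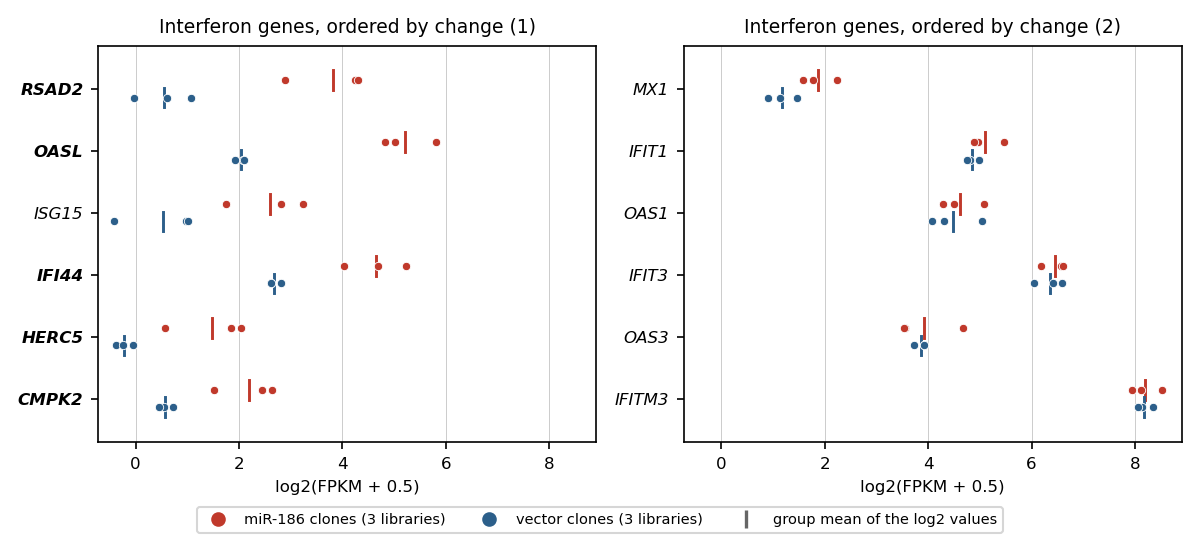
The 12 interferon-stimulated genes given by name, picked for display and ordered by change, with log2(FPKM + 0.5) on the x axis and a dot for each library of the miR-186 and vector clones at 0 nM and week 12. The 5 called genes, in bold, stand apart between constructs, while IFIT1, IFIT3 and OAS3 overlap or lie close together.

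Few genes that act before this response were called. Of 25 tested genes for interferons, their receptors, sensors and adaptors, 1 rose (4%, against 1.43% of all genes tested) and none fell (against 2.02%). The median change was -0.11. The riser was MAVS, the mitochondrial adaptor of RNA sensing, at 19.3, 17.4 and 17.6 FPKM with miR-186 and at 12.9, 11.4 and 10.2 FPKM with the vector. Its rise of 0.63 ± 0.18 was near the threshold (limma, adjusted p = 0.0499) and was called in 0 of the 6 fits that leave out a library, where the adjusted p was 0.078 to 0.152. The interferon gene IFNB1 was at 0, 0.0392 and 0 FPKM with miR-186 and at 0 in the vector libraries, below the level needed for a test. IFNGR1, a chain of the interferon gamma receptor, was at 143, 129 and 137 FPKM with miR-186 and at 271, 189 and 299 FPKM with the vector. Its libraries did not overlap, and its difference of -0.86 did not pass (limma, adjusted p = 0.0581).

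Promoters of the called interferon genes are shown for RSAD2, IFI44 and HERC5, since these genes were called together. Windows from 250 bases before to 50 after the start (RefSeq, GRCh38.p14, plus strand) were searched on both strands for GAAANNGAAA, a form of the interferon-stimulated response element. Capitals mark matches.
RSAD2 promoter, chr2:6877527-6877826: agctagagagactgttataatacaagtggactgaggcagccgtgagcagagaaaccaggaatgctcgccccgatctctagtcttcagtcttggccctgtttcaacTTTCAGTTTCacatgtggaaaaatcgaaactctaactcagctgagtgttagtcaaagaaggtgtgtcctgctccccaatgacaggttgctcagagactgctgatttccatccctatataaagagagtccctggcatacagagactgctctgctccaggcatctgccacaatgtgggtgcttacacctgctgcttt
IFI44 promoter, chr1:78649539-78649838: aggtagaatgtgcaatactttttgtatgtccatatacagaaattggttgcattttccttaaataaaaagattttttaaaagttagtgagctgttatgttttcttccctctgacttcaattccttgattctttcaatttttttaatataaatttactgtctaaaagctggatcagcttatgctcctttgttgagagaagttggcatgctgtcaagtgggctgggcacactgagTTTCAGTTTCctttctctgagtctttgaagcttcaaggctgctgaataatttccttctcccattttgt
HERC5 promoter, chr4:88456869-88457168: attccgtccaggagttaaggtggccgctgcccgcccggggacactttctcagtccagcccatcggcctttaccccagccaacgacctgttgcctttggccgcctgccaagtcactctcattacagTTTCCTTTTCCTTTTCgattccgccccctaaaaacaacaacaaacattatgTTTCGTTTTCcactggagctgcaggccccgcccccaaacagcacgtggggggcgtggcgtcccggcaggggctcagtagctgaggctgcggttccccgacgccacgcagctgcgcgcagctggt
The RSAD2 and IFI44 windows each held 1 match and the HERC5 window 3, some of them overlapping. The motif was in 3.57% of 35116 promoter windows, and in a window of 3.94% of 10328 tested genes. It was in a window of 25 of the 32 interferon-stimulated genes with a promoter in the table (78.1%). The windows of CMPK2 and another window of RSAD2 held no match.

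The other large rises were of varied kinds, and several were of genes barely expressed in the vector clones. The non-coding RNA LINC01278 was at 2.68, 4.23 and 3.41 FPKM with miR-186 and was listed at 0 in the 3 vector libraries (limma, adjusted p = 4.07e-07). P2RX5, a gene for an ATP-gated channel, was at 1.16, 2.12 and 1.48 FPKM with miR-186 and was also listed at 0 in the vector libraries (limma, adjusted p = 0.000316). The homeobox gene HDX was at 1.57, 3.01 and 2.49 FPKM against 0.0389, 0.0352 and 0.0934 FPKM. These were the named genes with at least 1 FPKM in every miR-186 library and at most 0.1 FPKM in every vector library. GSPT2, a gene for a translation termination factor, was at 1.88, 2.9 and 2.14 FPKM against 0.0407, 0.184 and 0.0739 FPKM, and rose by 2.22 ± 0.24 (limma, adjusted p = 1.99e-05). TDRP, a gene named for testis development, was at 3.14, 3.11 and 2.99 FPKM against 0.124, 0.212 and 0.0258 FPKM, and rose by 2.54 ± 0.30 (limma, adjusted p = 9.98e-05). LINC01278, HDX, GSPT2 and AMOT lie on the X chromosome, where 8 of 422 tested genes were higher (1.9%, against 1.43% of all genes tested) and 8 lower.

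Adhesion and scaffold genes were among these rises. CADM1, a cell adhesion molecule of the immunoglobulin family, was at 0.895, 3.42 and 7.49 FPKM with miR-186 and at 0.073, 0.0849 and 0.0332 FPKM with the vector, a rise of 2.64 ± 0.49 (limma, adjusted p = 0.00538). AMOT, a scaffold that binds the growth regulator YAP, was at 2.84, 3.81 and 5.59 FPKM against 0.41, 0.0621 and 0.498 FPKM, and rose by 2.47 ± 0.50 (limma, adjusted p = 0.009). Both genes varied among the miR-186 libraries, with the third the highest. Neither overlapped the vector libraries, which the naming rule required. The histamine-degrading enzyme gene AOC1 was at 10.7, 2.72 and 2.11 FPKM against 0.383, 0.468 and 0.353 FPKM, and rose by 2.34 ± 0.48 (limma, adjusted p = 0.0101). Without the first miR-186 library its change was 1.69 and was not called (limma, adjusted p = 0.0589). The zinc finger gene ZNF254 rose by 2.09 ± 0.26, and ZDHHC11, a gene of the palmitoyltransferase family with a near-identical copy nearby that its reads may share, by 1.98 ± 0.35. CENPV, which encodes a centromere protein, was at 11.7, 19.8 and 23.7 FPKM against 5.57, 2.28 and 5.85 FPKM and rose by 1.94 ± 0.40 (limma, adjusted p = 0.0109), but not without the second vector library (1.55, adjusted p = 0.0652) or the second miR-186 library.

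Among the largest falls were 4 genes at 3.02 FPKM or more in the vector libraries and at 1.44 FPKM or less with miR-186. H19 (-3.10) and IL1RL1 (-2.88), given further on, were also among the largest falls but were higher than that in some miR-186 libraries. PRR5L (ENSG00000135362, chromosome 11), whose product binds the kinase complex mTORC2, was at 0.472, 0.636 and 0.00991 FPKM with miR-186 and at 12.0, 12.6 and 12.2 FPKM with the vector. The vector libraries were nearly alike, and PRR5L fell by 3.95 on the log2 scale (limma, SE 0.37, adjusted p = 2.2e-06). NEFL, the light neurofilament chain, was at 1.09, 0.793 and 1.44 FPKM against 18.7, 16.7 and 27.4 FPKM and changed by -3.72 ± 0.46 (limma, adjusted p = 0.000121). ZFP42, also called REX1 and used as a marker of pluripotent cells, was at 0.0982, 0.0479 and 0.0133 FPKM against 5.6, 7.07 and 3.61 FPKM and changed by -3.38 ± 0.25, with the smallest adjusted p of all genes tested (limma, 1.85e-07). PHETA2, an endosomal adaptor gene, was at 0.0131, 0.0741 and 0.253 FPKM against 3.45, 3.14 and 3.02 FPKM and changed by -2.61 ± 0.22 (limma, adjusted p = 3.93e-07). In these 4 genes the constructs were far apart in every library.

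The other falls were of genes with varied roles. TNFRSF10D, a decoy receptor that binds the death ligand TRAIL without signalling death, was at 0, 0.00767 and 0.017 FPKM with miR-186 and at 1.71, 2.64 and 2.27 FPKM with the vector. It changed by -2.40 ± 0.19 (limma, adjusted p = 3.09e-07). The homeodomain protein gene HOPX was at 0.14, 0.225 and 0.677 FPKM against 4.21, 2.39 and 4.38 FPKM (-2.31 ± 0.32, limma, adjusted p = 0.000325). PRSS21, a membrane-anchored serine protease, changed by -2.50 ± 0.37 and PHACTR3, a regulator of phosphatase and actin, by -2.12 ± 0.30. The basement membrane protein gene FRAS1 was at 0.887, 1.16 and 0.65 FPKM against 4.78, 4.46 and 6.06 FPKM (-2.01 ± 0.28, limma, adjusted p = 0.000425). The tetraspanin gene TSPAN8 was at 1.62, 5.64 and 6.8 FPKM against 11.8, 33.5 and 15.5 FPKM (-2.04 ± 0.48, limma, adjusted p = 0.0241). It was not called without vector library 2 or 3 or miR-186 library 1, with an adjusted p of up to 0.124. KRTCAP3, a keratinocyte-associated gene, was at 3.78, 13.4 and 6.98 FPKM against 26.9, 42.2 and 27.0 FPKM (-2.06 ± 0.43), and it was not called without the second vector library or the first miR-186 library (limma, adjusted p up to 0.0663).

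Some large falls had a wide standard error in the fit of all 24 libraries, which shares 1 estimate of spread over the 8 groups. H19, an imprinted non-coding RNA, was at 2.33, 7.64 and 3.18 FPKM with miR-186 and at 41.5, 45.2 and 27.4 FPKM with the vector. Its change of -3.10 ± 0.86 was close to the threshold (limma, adjusted p = 0.0499) and was called in 0 of the 6 fits that leave out a library (0.0798 to 0.161). MFAP5, a microfibril protein of the matrix, was at 0.716, 0.571 and 0.363 FPKM against 3.23, 8.87 and 5.44 FPKM (-2.51 ± 0.62, limma, adjusted p = 0.0304). It was called in 1 of those 6 fits, and H19 was not called with the correction for GC content and windows (limma, adjusted p = 0.0514). At 100 nM and week 12, H19 ran from 15.7 to 184 FPKM with the vector and from 0.170 to 7.30 FPKM with miR-186. Fitted on the 6 libraries of this comparison alone, H19 and MFAP5 were both called (limma, adjusted p = 0.0259 and 0.0272).

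**Figure D2:**
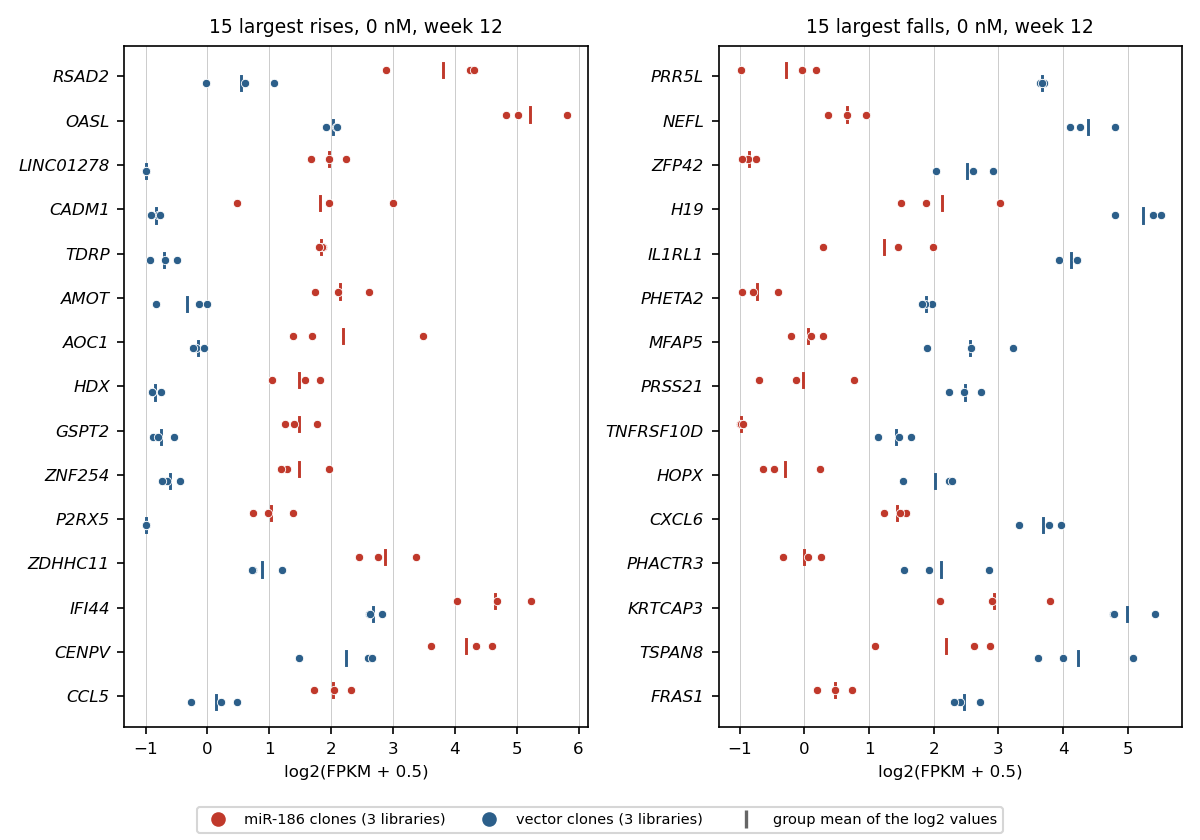
The 15 largest rises and the 15 largest falls that met the naming rule, with log2(FPKM + 0.5) on the x axis, a dot for each of the 3 libraries of each construct and a bar at each group's mean. The rule admitted only genes whose libraries do not overlap, and among the 30 genes AOC1, CADM1 and H19 are spread within a group.

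Among cytokine and inflammation genes, CCL5 was the riser and several chemokine and receptor genes fell. Of 26 tested genes for cytokines, chemokines and NF-kB feedback, 1 rose (3.85%) and 3 fell (11.5%), against 1.43% and 2.02% of all genes tested, and the median change was -0.42. These shares of all genes are the background for the counts of the lists that follow, where 1 called gene in a list of this size is already above them. CXCL1, a neutrophil-attracting chemokine, was at 32.0, 23.5 and 24.7 FPKM with miR-186 and at 84.3, 88.2 and 81.9 FPKM with the vector (-1.66 ± 0.34, limma, adjusted p = 0.00969). All 3 miR-186 libraries were far below the vector libraries, and CXCL1 was called in 5 of the 6 fits that leave out a library, the exception being miR-186 library 2 (limma, adjusted p = 0.0506). IL1RL1, the receptor of the alarmin interleukin-33, was at 3.46, 0.724 and 2.22 FPKM against 14.8, 18.0 and 18.1 FPKM (-2.88 ± 0.65, limma, adjusted p = 0.0176). TNFAIP2, a gene induced by tumour necrosis factor, was at 267, 148 and 123 FPKM against 380, 347 and 373 FPKM (-1.11 ± 0.29, limma, adjusted p = 0.0368). IL1RL1 was called in 2 and TNFAIP2 in 1 of the 6 fits that leave out a library. CXCL6, a chemokine gene among the largest falls, was at 1.84, 2.48 and 2.29 FPKM against 13.3, 9.43 and 15.2 FPKM (-2.26 ± 0.39, limma, adjusted p = 0.00287).

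Among 23 tested cell death genes, 1 rose (4.35%) and 3 fell (13%), against 1.43% and 2.02% of all genes tested, with a median of -0.20. RIPK3, the kinase of necroptosis, was at 0.571, 0.383 and 0.511 FPKM with miR-186 and at 2.21, 2.95 and 2.19 FPKM with the vector (-1.57 ± 0.20, limma, adjusted p = 0.000159). GSDME, a pore-forming gasdermin, was at 12.2, 18.3 and 18.6 FPKM against 30.3, 38.6 and 33.2 FPKM (-1.05 ± 0.23, limma, adjusted p = 0.0142), and TNFRSF10D was the other fall. The riser was BNIP3, a mitophagy and death gene, at 3.76, 1.5 and 4.93 FPKM against 0.878, 0.507 and 0.624 FPKM (1.63 ± 0.39, limma, adjusted p = 0.0238). RIPK3 was called in each of the 6 fits that leave out a library, GSDME in 4 and BNIP3 in 1.

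In growth factor signalling the clearest change was in ERBB2. Of 27 tested genes of EGF receptor and MAP kinase signalling, 1 rose and 1 fell (3.7% each, against 1.43% and 2.02% of all genes tested), with a median of 0.04. ERBB2 (ENSG00000141736, chromosome 17, 39687914 to 39730426), the receptor tyrosine kinase HER2, was at 50.1, 52.7 and 42.8 FPKM with miR-186 (48.5 ± 5.13, SD, n = 3) and at 15.7, 18.5 and 19.4 FPKM with the vector (17.9 ± 1.91, SD, n = 3). It rose by 1.42 ± 0.23 (limma, adjusted p = 0.00174), with a wide gap between the groups. With the correction for GC content and 20 Mb windows its change was 0.76 (limma, adjusted p = 0.00661). The fall was of EPGN, a ligand of the EGF receptor, at 4.13, 0.958 and 2.32 FPKM against 7.66, 13.7 and 5.88 FPKM (-1.76 ± 0.46, limma, adjusted p = 0.0404), called in 1 of the 6 fits that leave out a library and not with that correction (limma, adjusted p = 0.0743). Of 28 TGF-beta and YAP pathway genes, AMOT rose and LTBP1, which stores latent TGF-beta in the matrix, fell (1.51, 0.801 and 1.32 against 5.97, 3.86 and 7.88 FPKM, -1.88 ± 0.40, limma, adjusted p = 0.0117). Of 20 WNT pathway genes 1 fell, the ligand gene WNT4 (-1.16 ± 0.25, limma, adjusted p = 0.0123). LTBP1 was called in 4 and WNT4 in 3 of the 6 fits that leave out a library. Medians were 0.03 and -0.12 for these lists.

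The keratinocyte programme changed at few genes. Since the libraries are bulk RNA, fewer cells of a type and less RNA per cell cannot be told apart. Of 27 tested genes of desmosomes and other junctions, 2 rose (7.41%), CADM1 among them, and 1 fell (3.7%), DSG3, against 1.43% and 2.02% of all genes tested, with a median of -0.15. The desmosomal cadherin gene DSG3 was at 71.2, 66.8 and 69.1 FPKM with miR-186 and at 147, 113 and 142 FPKM with the vector (-0.94 ± 0.18, limma, adjusted p = 0.007). Its groups were well apart, and it was called in each of the 6 fits that leave out a library.

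Lists of keratinocyte state gave no called gene, although some medians were away from 0. Of 19 basal genes none passed, with a median of -0.29, but with the GC correction 2 were higher and 1 lower. DST, a linker of keratin to hemidesmosomes, was at 105, 145 and 137 FPKM with miR-186 and at 73.5, 85.4 and 91.6 FPKM with the vector, and its 0.62 ± 0.17 just missed the threshold (limma, adjusted p = 0.0502, and 0.0161 with the GC correction). The others were the transcription factor gene SOX9 at 0.61 (limma, adjusted p = 0.055, and 0.0269 with the GC correction) and the hemidesmosomal collagen gene COL17A1 at -0.69 (0.139 and 0.0493). The libraries of the constructs did not overlap in these 3 genes, as in 3933 of the 14228 genes tested. KRT5, the basal keratin, was at 1142, 921 and 670 FPKM with miR-186 and at 1028, 1124 and 1414 FPKM with the vector. Of 19 cornified envelope and suprabasal genes none passed, with a median of 0.07. All 8 simple keratins tested stood above 0, with a median of 0.53, and none passed, and KRT19 was at 667, 738 and 425 FPKM against 352, 340 and 339 FPKM (0.79, limma, adjusted p = 0.291).

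Stress keratins and alarmins had the lowest median of these lists, -1.18, with 14 of 16 genes below 0 and none past the test. The antimicrobial S100A8 was at 56.3, 31.6 and 13.6 FPKM with miR-186 and at 234, 17.4 and 341 FPKM with the vector. LCN2, an iron-chelator binding protein, was at 463, 339 and 1157 FPKM against 3271, 484 and 4294 FPKM. In both genes the second vector library was far below the other vector libraries and within the range with miR-186, so the groups overlapped. KRT17, a keratin of activated keratinocytes, was at 1832, 2663 and 1136 FPKM against 836, 701 and 1059 FPKM, a difference of 1.05 that did not pass (limma, adjusted p = 0.192). Of 17 genes of epithelial to mesenchymal transition none passed, with a median of -0.05.

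**Figure D3:**
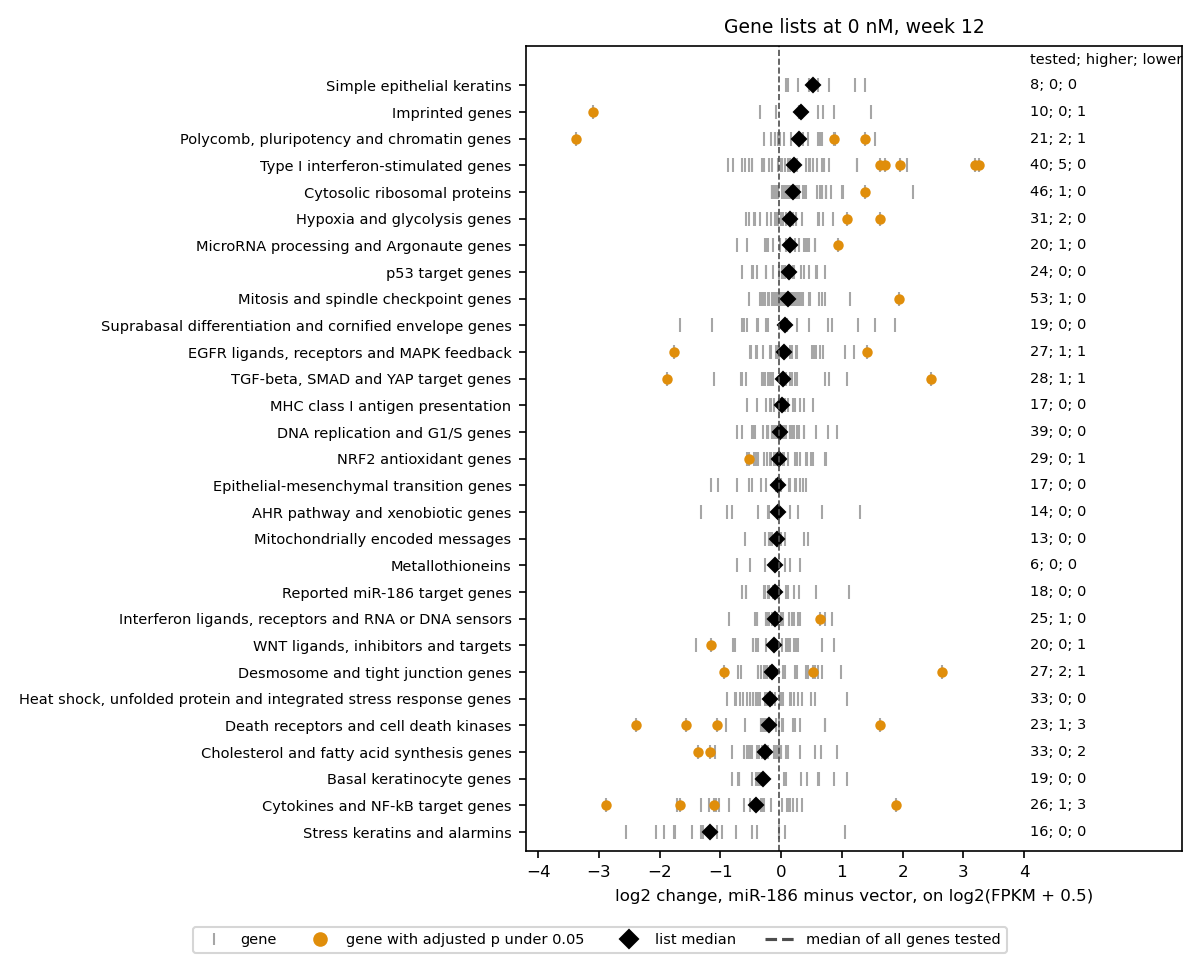
Changes of the genes in each list, as log2 change of miR-186 minus vector at 0 nM and week 12 on the x axis, with a grey tick for each gene, orange for called genes and a diamond at the list's median, and the median of all genes tested (-0.03) as a dashed line. Called genes are few in every list, and the stress keratins and alarmins have the lowest median.

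Cell cycle and stress lists held few called genes. Of 53 mitosis genes 1 rose, CENPV, with a median of 0.11, and of 39 genes of G1 and S phase none passed, with a median of -0.03. None passed among 24 p53 targets, 14 targets of the aryl hydrocarbon receptor, 6 metallothioneins or 33 heat shock and unfolded protein response genes, with medians of 0.12, -0.06, -0.09 and -0.18. Of 29 genes of the NRF2 response 1 fell, NFE2L2, which encodes NRF2 itself, at 125, 130 and 126 FPKM with miR-186 and at 181, 205 and 169 FPKM with the vector. Its change of -0.54 ± 0.14 (limma, adjusted p = 0.043) was called in 0 of the 6 fits that leave out a library.

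Metabolic lists changed at single genes. Of 31 hypoxia and glycolysis genes BNIP3 and the neuronal enolase gene ENO2 rose (6.45%, against 1.43% of all genes tested), with a median of 0.15. ENO2 was at 1.92, 0.964 and 1.86 FPKM against 0.369, 0.768 and 0.283 FPKM (1.09 ± 0.29, limma, adjusted p = 0.0402) and was called in 2 of the 6 fits that leave out a library and not with the correction for GC content and windows (limma, adjusted p = 0.0689). Of 33 cholesterol and fatty acid genes 2 fell (6.06%, against 2.02% of all genes tested) and 26 stood below 0, with a median of -0.26. The falls were the fatty acid desaturases FADS1, at 28.6, 48.2 and 71.5 FPKM against 127, 75.1 and 121 FPKM, and FADS2, at 3.45, 10.1 and 8.3 FPKM against 21, 12.1 and 23 FPKM. Their changes were -1.17 ± 0.28 and -1.37 ± 0.37 (limma, adjusted p = 0.0271 and 0.0439), the gene models overlap on chromosome 11 so that shared reads are possible, and each was called in 2 of those fits. None of the 13 mitochondrially encoded mRNAs passed, with a median of -0.07. Of 46 cytosolic ribosomal protein genes 1 rose, RPL19 on chromosome 17 (2210, 3295 and 2246 against 907, 896 and 1131 FPKM, 1.38 ± 0.29, limma, adjusted p = 0.0115), with a median of 0.20. RPL19 was called in 4 of those fits, and not with the correction for GC content and windows (limma, adjusted p = 0.0672).

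In the machinery of microRNAs and chromatin, individual genes rose. Of 20 tested genes of microRNA processing 1 rose, AGO2, the Argonaute that cuts its targets, at 7.06, 6.42 and 5.8 FPKM with miR-186 and at 3.47, 2.03 and 4.24 FPKM with the vector (0.93 ± 0.25, limma, adjusted p = 0.0468). It was called in 1 of the 6 fits that leave out a library, and the list's median was 0.14. Of 21 Polycomb and pluripotency genes 2 rose (9.52%, against 1.43% of all genes tested) and 1 fell (4.76%, against 2.02%), ZFP42, with a median of 0.30. EZH1, a histone H3 lysine methyltransferase gene on chromosome 17, was at 18.2, 16.9 and 24.6 FPKM against 8.08, 6.83 and 6.87 FPKM (1.38 ± 0.23, limma, adjusted p = 0.0018), and was called in each of those fits. CBX7, a reader of the Polycomb mark, was at 2.06, 2.31 and 2.5 FPKM against 1.21, 1.06 and 0.809 FPKM (0.87 ± 0.22, limma, adjusted p = 0.0307), and was called in none of them, nor with the GC correction (limma, adjusted p = 0.0918). Over the 34 lists together, 691 different genes were tested and 33 were called (4.78%), 18 higher and 15 lower, against 3.44% of all genes tested.

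Genes reported elsewhere as direct targets of miR-186 did not pass the test. Of 20 such genes 18 were tested, with 12 below 0 and a median of -0.10 against -0.03 over all genes. The lowest p was for YY1, a zinc finger transcription factor, at 52.4, 42.4 and 56.6 FPKM with miR-186 and at 81.5, 70.0 and 73.5 FPKM with the vector. Its libraries did not overlap, and the difference of -0.58 ± 0.17 missed the threshold (limma, adjusted p = 0.0713). TGFBR2, a TGF-beta receptor, was at 30.0, 26.9 and 33.0 FPKM against 47.1, 57.6 and 38.4 FPKM (-0.65 ± 0.22, limma, adjusted p = 0.112). HIF1A, the oxygen-regulated transcription factor, was at 68.3, 34.0 and 42.6 FPKM against 74.4, 67.9 and 66.2 FPKM, with an overlap between the groups (-0.58 ± 0.24, limma, adjusted p = 0.191). YY1 and HIF1A lie on chromosome 14. The scaffold AKAP12 stood highest at 1.12 ± 0.50 (limma, adjusted p = 0.217) and the receptor ROR1 at 0.58. The remaining 13 ran from -0.28 to 0.29: among them CDK6 was at 0.29, CUL3 at -0.22, CCND1 at -0.22, YAP1 at -0.20, IGF1R at 0.11, FOXO1 at -0.05 and XIAP at -0.04.

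Sites for the miR-186-5p seed were searched as ATTCTTTA, which pairs with seed bases 2 to 8 followed by an A, on the sense strand of each gene's longest annotated 3′ UTR. The shown sites, with the match in capitals, belong to 4 lower genes and were chosen after their values were seen.
REEP1 (chromosome 2): ggagtgtggtctatATTCTTTAgatagttg
PID1 (chromosome 2): aacatatgtaagctATTCTTTAgcataaat
MAP1B (chromosome 5): ctcaggcagtaggcATTCTTTAgtctacat
FUT8 (chromosome 14): aatgccatgaacaaATTCTTTAgtactcaa
REEP1, which shapes the endoplasmic reticulum, was at 0.946, 0.443 and 0.391 FPKM with miR-186 and at 2.39, 5.43 and 3.15 FPKM with the vector (-1.90 ± 0.44, limma, adjusted p = 0.0215). PID1, an adaptor gene, changed by -1.43 ± 0.30, and MAP1B, a microtubule-associated protein, by -1.24 ± 0.21. FUT8, the core fucosyltransferase, was at 14.1, 4.95 and 17.5 FPKM against 44.5, 29.1 and 40.3 FPKM (-1.75 ± 0.40, limma, adjusted p = 0.0186), and was not called with the correction for GC content and windows (-1.09, adjusted p = 0.101). The share of lower genes in the whole set was close to that of other genes. Of 939 tested genes with the 8-base site, 7 were higher (0.745%) and 19 lower (2.02%). Of 4678 tested genes without the shorter TTCTTT, 94 were lower (2.01%), as were 2.25% of all 11909 tested genes with a 3′ UTR.

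The median change was -0.11 for genes with the site and 0.04 for genes without TTCTTT, but the sets also differ in composition, at a median gene GC content of 41.0% and 54.7%. After correction for GC content the medians were 0.03 and -0.01. Of the 19 lower genes with the site 11 lay on chromosome 14, and without that chromosome 8 of 894 genes with the site were lower (0.895%), against 1.63% of genes without TTCTTT. In the other comparisons of the constructs, the medians of genes with the site were -0.01 at 100 nM and week 12 and 0.15 at 0 nM and week 29.

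The called genes were unevenly spread over the genome. On chromosome 17, 70 of 881 tested genes were higher (7.95%) and 4 lower, so that a chromosome with 6.19% of the genes tested held 34.5% of those that were higher. On chromosome 14, 76 of 500 genes were lower (15.2%) and 4 higher, or 26.5% of those that were lower against 3.51% of the genes tested. Chromosome 16 held 36 lower genes of 657 (5.48%) and chromosome 9 held 21 higher genes of 563 (3.73%). The chromosomes other than 9, 14, 16 and 17 held 106 higher and 165 lower genes. Over chromosomes 17 and 14 all 3 miR-186 libraries shared the shift. Their median deviation from the vector mean was 0.18, 0.20 and 0.13 over chromosome 17 and -0.19, -0.52 and -0.47 over chromosome 14. Medians as high as on chromosome 17 were not particular to it. Chromosome 19, with 1.8% of its genes higher, had 0.23, 0.30 and 0.065 in these libraries. With the GC correction the median change was 0.14 on chromosome 17, 0.08 on chromosome 19 and -0.33 on chromosome 14. It was as high as on chromosome 17 or higher on chromosomes 9, 10 and 6, at 0.19, 0.15 and 0.14. The vector libraries lay between -0.05 and 0.07 on chromosomes 17 and 14. Elsewhere a single vector library could deviate as far, as vector library 2 did at -0.24 over chromosome 6 and vector library 3 at -0.16 over chromosome 20. With a correction for GC content and for the median of each 20 Mb window, 49 higher and 26 lower genes were called on chromosome 17, and 9 higher and 12 lower genes on chromosome 14.

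**Figure D4:**
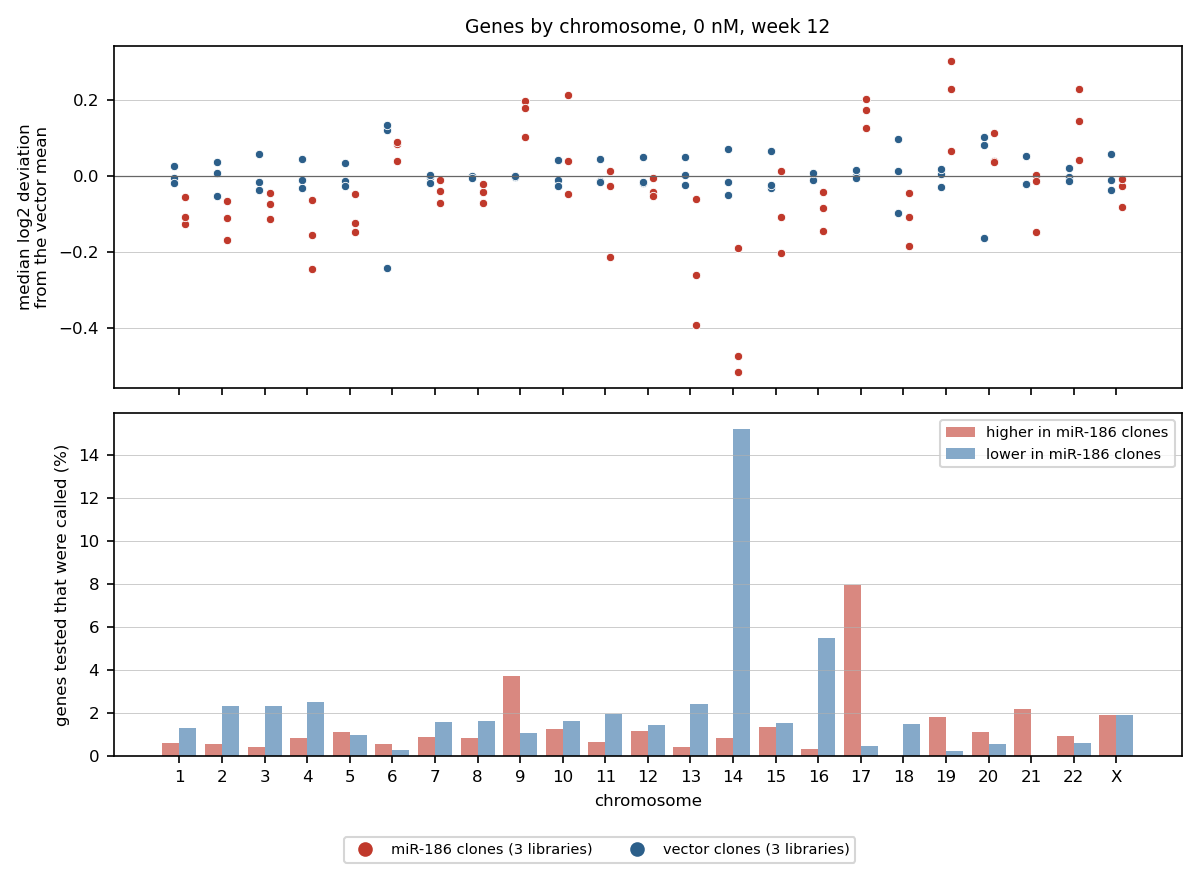
Top, the median log2 deviation of each library from the vector mean for every chromosome, a dot for each of the 3 miR-186 and 3 vector libraries. Bottom, the percentage of tested genes called higher or lower on each chromosome, with chromosome 17 at 7.95% higher and chromosome 14 at 15.2% lower.

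On chromosome 17 the rises lay together. Between 30 and 40 Mb, 30 of 102 tested genes were higher and the median change was 0.44, and the window medians of the 3 miR-186 libraries were 0.40, 0.44 and 0.47. Between 20 and 30 Mb 7 of 58 were higher, between 40 and 50 Mb 22 of 178, and between 50 and 60 Mb 0 of 67. The window from 30 to 40 Mb holds ERBB2 and genes around it, named here after their values were seen. GRB7, an adaptor of receptor kinases, was at 32.1, 23.5 and 20.9 FPKM with miR-186 and at 7.12, 6.89 and 6.98 FPKM with the vector (1.77 ± 0.27, limma, adjusted p = 0.000774). MLLT6, a chromatin-associated gene, was at 37.8, 50.7 and 28.2 FPKM against 10.4, 8.11 and 12.0 FPKM (1.86 ± 0.28, limma, adjusted p = 0.000774). The transcription kinase gene CDK12 was at 34.6, 34.5 and 31.3 FPKM against 15.4, 13.3 and 13.2 FPKM (1.24 ± 0.20, limma, adjusted p = 0.00159). With the correction for GC content and windows the changes of GRB7 and MLLT6 were 1.03 and 1.16, still called (limma, adjusted p = 0.00546 and 0.00176). Each of the 3 genes had a wide gap between the groups, as had STAT3, a transcription factor of cytokine signalling between 40 and 50 Mb, at 87.1, 88.4 and 87.2 FPKM against 55.1, 47.8 and 53.2 FPKM (0.75 ± 0.15, limma, adjusted p = 0.009). RPL19, EZH1 and CCL5, described with their lists, are on this chromosome as well.

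On chromosome 14 the falls were densest between 70 and 80 Mb, where 25 of 77 tested genes were lower with a median of -0.62, and the medians of the miR-186 libraries were -0.48, -0.70 and -0.76. Between 60 and 70 Mb 15 of 63 genes were lower, and between 90 and 100 Mb 13 of 53. The genes named next were chosen from the whole chromosome after their values were seen. PLEK2, a pleckstrin family gene, was at 30.3, 26.7 and 28.1 FPKM with miR-186 and at 63.3, 65.0 and 63.7 FPKM with the vector (-1.16 ± 0.16, limma, adjusted p = 0.000403), and with the correction for GC content and windows it changed by -0.75 (limma, adjusted p = 0.0416). FERMT2, an integrin-binding kindlin, was at 3.15, 4.37 and 8.5 FPKM against 18.4, 19.5 and 16.3 FPKM (-1.77 ± 0.27, limma, adjusted p = 0.000855). In both genes the highest miR-186 library was below the lowest vector library, but 487 of the 490 called genes had no overlap. RIPK3, TNFAIP2 and FUT8 lie on chromosome 14 too. RIPK3 is outside the dense windows, between 20 and 30 Mb, where 4 of 94 tested genes were lower, 3 were higher and the median was -0.04. TNFAIP2 is between 100 and 110 Mb, where 8 of 67 were lower.

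The same constructs were also compared at 100 nM iAs in week 12 and at 0 nM in week 29, in other libraries but from the same clonal lines per the labels, so these are not independent sets of clones. At 100 nM and week 12, 131 genes were higher (0.921%) and 156 lower (1.1%). At 0 nM and week 29, 251 were higher (1.76%) and 156 lower (1.1%), and with the replicate number as a block these were 459 and 285. Overlaps are from the fit without the block unless it is named. Of the 203 higher genes, 84 were also called higher at 100 nM (41.4% of the 203 and 64.1% of the 131) and 64 at week 29 (31.5% of the 203 and 25.5% of the 251). Of the 287 lower genes, 93 were also called lower at 100 nM (32.4% and 59.6% of the respective lists) and 57 at week 29 (19.9% and 36.5%). With the block at week 29 these overlaps were 76 and 74. None was called in the opposite direction, with or without the block at week 29, and 55 higher and 44 lower genes were called in all 3 comparisons (62 and 52 with that block). The direction was kept at 100 nM by 198 of the higher and 282 of the lower genes, and at week 29 by 184 and 249.

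Of the 15 largest rises, 15 were above 0 in both other comparisons, with 13 called at 100 nM and 9 at week 29 (11 with the block). Of the 15 largest falls, 15 were below 0 in both, with 13 and 9 called (12 with the block). ZFP42 was at 0.0145 to 0.386 FPKM with miR-186 and at 3.39 to 6.04 FPKM with the vector at week 29, and LINC01278 at 2.42 to 4.70 against 0.0107 to 0.0473 FPKM, so both kept a wide gap. The 5 interferon genes were called at 100 nM (limma, adjusted p of at most 0.0371). At week 29 none was called without the block, where OASL was 1.39 and RSAD2 2.19 (limma, adjusted p = 0.0549 for each). With the block RSAD2 and CMPK2 were called at week 29 (limma, adjusted p = 0.00813 and 0.0224), and OASL, HERC5 and IFI44 were not (0.0519, 0.0516 and 0.0974). OASL in the vector libraries was at 3.3 to 3.77 FPKM at week 12 and at 11.7 to 18.3 FPKM at week 29, while with miR-186 it was at 27.7 to 55.6 and at 34.5 to 53.3 FPKM. ERBB2 was at 0.74 at 100 nM and 0.71 at week 29 (limma, adjusted p = 0.112 and 0.0994), above 0 but not called. DSG3 was lower in both, at -0.95 and -0.79. On chromosome 17, with 881 genes tested, 48 were higher at 100 nM, 54 at week 29 and 79 at week 29 under the block. In the same order, 5, 2 and 9 were lower there. On chromosome 14, with 500 genes tested, 37, 27 and 46 were lower, and 0, 1 and 1 were higher.

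**Figure D5:**
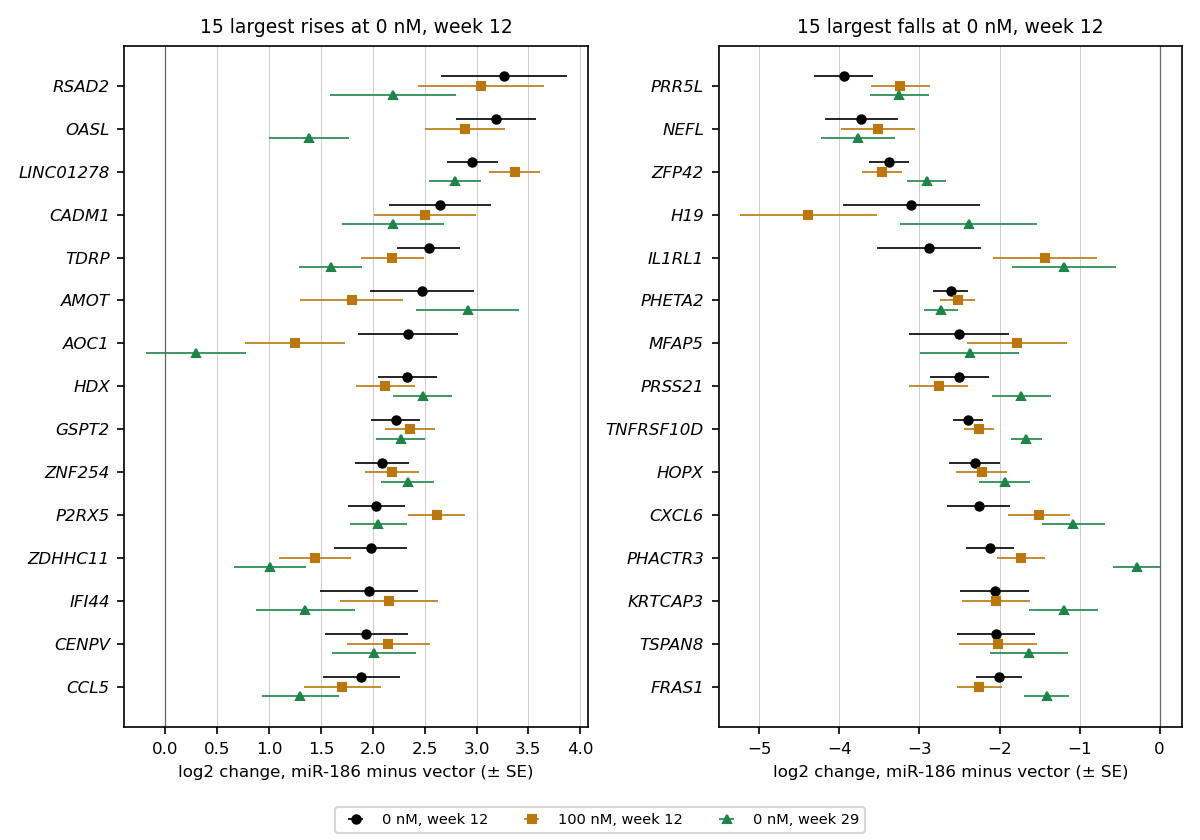
The log2 change of miR-186 minus vector ± standard error for the 30 genes at 0 nM and week 12, at 100 nM and week 12, and at 0 nM and week 29. The 15 rises stay above 0 and the 15 falls below 0 in the 3 comparisons, and AOC1 (0.29) and PHACTR3 (-0.28) lie closest to 0 at week 29.

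Whether the effect of the construct itself differed was tested as an interaction. Between weeks at 0 nM, limma called 0 genes, with 1910 at an unadjusted p under 0.05 and a smallest adjusted p of 0.257. The smallest p with a symbol were those of WDR43, a ribosome biogenesis gene (difference 0.94), the splicing factor gene TRA2A (1.00), the myosin gene MYO1E (1.14) and FILIP1L (2.04), which was at -0.00 in week 12 and 2.03 in week 29. The difference for OASL was -1.80 (limma, adjusted p = 0.329). Between doses at week 12, limma called 0 genes, with 421 at an unadjusted p under 0.05 and a smallest adjusted p of 0.977, and among the smallest p were AP4S1 (1.25) of vesicle transport and the epithelial transcription factor gene ELF3 (-0.96).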

How the data were processed

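RNA-seq was made from HaCaT clones in 8 groups of 3 libraries. The mirVana kit was used for RNA and the TruSeq Stranded mRNA kit for libraries, which were pooled and read paired-end on a NextSeq instrument, per the labels' protocols. Per the submitters' processing notes, the authors made the deposited FPKM with STAR 2.6.0c and Cuffdiff 2.2.1 on hg38 (GRCh38). The annotation release, strand setting and any further scaling are not given in the sources used here, so antisense genes are not named. Read counts are not known, which limits what can be said of low values.

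Values were analysed as log2(FPKM + 0.5) for 14228 of 58381 genes, those whose mean across the 24 libraries was 0.5 FPKM or more. The 8 groups were fitted together in limma 3.58.1 under R 4.3.3 (trend and robust options), after the code was tested on simulated data. A gene was called at a Benjamini-Hochberg adjusted p under 0.05, over all genes tested. The p-values measure only the spread between these samples. Coordinates, GC content and 3′ UTRs came from GENCODE release 29, and promoters and microRNAs from RefSeq.

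The comparison and the 34 gene lists were chosen with earlier results of these data known. Named genes are MIR186, ZRANB2, the 15 largest rises and falls among called genes with a symbol, 1 FPKM or more on average in the higher group and libraries that do not overlap (antisense genes left out), up to 4 genes of each list by smallest p, tested reported targets, and the 5 smallest p of each interaction. Not every such gene is printed, and some results are not reported here. CMPK2, STAT3 and list members given as values that did not pass were also picked after their values were seen.

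Alternatives were pseudocounts of 0.1 and 1, no filter, a mean of at least 1 FPKM, the 6 libraries alone, median ratio scaling, a GC correction (a natural spline of 5 degrees of freedom set by genes above 1.5 FPKM, 14208 genes), the same with centring of 20 Mb windows holding at least 40 genes, a replicate block with and without the GC correction, and leaving out each library. Same-numbered libraries had correlations of deviations of -0.0244, 0.139 and 0.179 at 0 nM and week 12, 0.166, 0.0676 and 0.108 at 100 nM, and 0.214, 0.227 and 0.198 at week 29. Every value exceeded 0.1 at week 29 alone, where the number was treated as pairing, from the data and not the labels. At 100 nM too, each miR-186 library correlated most with the vector library of its own number. At 0 nM and week 12 only the second did. The block was fitted over all 24 libraries with a shared effect for each number, so it also joined same-numbered libraries at week 12. The fit without the block was kept for all comparisons, and blocked values at week 29 are printed where they change a call.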

Additional observations from a re-analysis of the deposited data

How the results depend on the processing

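The count of 490 called genes stayed within 1.5 times under other pseudocounts (478 and 482), no filter (473), a higher filter (474), median ratio scaling (482), the GC correction (685) and that with window centring (474). The genes behind a like count were not always the same. Of the 490, 324 were called without the filter, 420 with the GC correction and 278 with window centring added. Fitted on the 6 libraries alone it was 107 (60 higher and 47 lower), and leaving out 1 library gave 183 to 454, lowest without the second miR-186 library, with fewer samples in each case. At 100 nM and week 12 the 287 calls became 185 without the filter, 24 in the 6 libraries alone, 531 with the GC correction, and 101 to 289 with a library left out. At 0 nM and week 29 the 407 calls became 216 without the filter, 153 in the 6 libraries alone, and 95 to 266 with a library left out. The 33 called list genes became 21 without the filter, 16 in the 6 libraries alone, and 16 to 26 with a library left out. Of 0 interactions, the fit without the filter called 4 for week and 7 for dose, and leaving out a library gave 0 to 1 for each. Without read counts, the precision of low FPKM is not known.

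With the replicate block the counts were 1002 at 0 nM and week 12 (388 higher and 614 lower), 488 at 100 nM, 744 at week 29 and 60 list genes, and with the block and the GC correction together they were 1160 (599 higher and 561 lower), 819, 838 and 65. The labels do not pair the clones of the constructs, so at week 12 the numbers are only shared. The 490 genes were all among the 1002. Of the alternatives for the 51 named genes, none reversed a direction, 670 kept the call and 144 lost it, where the cause was not tested.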

Other observations

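Other called genes, picked after their values were seen, are given as values. Of barrier and membrane genes, CSTA, a protease inhibitor of the cornified envelope, was at 154, 98.0 and 143 FPKM with miR-186 and at 324, 303 and 398 FPKM with the vector (-1.39, limma, adjusted p = 0.00566). CAV1, the coat protein of caveolae, was at 371, 467 and 401 FPKM against 757, 1199 and 816 FPKM (-1.14, limma, adjusted p = 0.00901), and CYB5R1, a reductase gene, at 40.8, 44.4 and 37.8 FPKM against 166, 89.3 and 178 FPKM (-1.74, limma, adjusted p = 0.000855). In all 3 genes the miR-186 libraries lay below the vector libraries, but 487 of the 490 called genes had no overlap. Of rises, NEAT1, the RNA scaffold of nuclear paraspeckles, was at 100, 146 and 151 FPKM against 51.9, 64.8 and 70.5 FPKM (1.07, limma, adjusted p = 0.0214). TBC1D4, a regulator of glucose transporter traffic, was at 5.68, 6.37 and 5.88 FPKM against 1.99, 1.91 and 1.84 FPKM (1.42, limma, adjusted p = 0.00653).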
